A study of Mus musculus with 15 samples.

Results

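Elastin, the fibrillins and the proteins that bind their microfibrils were followed here as 10 genes: Eln, Fbn1, Fbn2, Mfap2, Mfap4, Mfap5, Ltbp1, Ltbp2, Ltbp4 and Emilin1. They were chosen by name, as every non-control probe whose gene name in the scanner files was 1 of these 10, which gave 10 of 46287 features (a gene or an unnamed probe) and 15 of 55681 non-control probes. RNA came from primary mouse lung cells of 2 kinds, alveolar type II (ATII) cells and fibroblasts, each given β-aminopropionitrile (BAPN) or vehicle for 24 h and hybridised to 15 one-colour Agilent arrays, 1 sample an array. The groups were ATII cells with 1 mM BAPN (4 arrays), ATII cells with PBS vehicle (4 arrays), fibroblasts with 1 mM BAPN (3 arrays) and fibroblasts with PBS vehicle (4 arrays). ATII cells were in culture for 3 days, at the air-liquid interface. Fibroblasts were at passage 3 or later and had a 24 h starvation, so effects of culture and of cell type cannot be told apart. One ATII BAPN array, called replicate 5 here, was labelled as a replacement and carried no replicate number. No label tells if replicates are different animals or cultures. The p-values therefore rest on sample-to-sample spread that may be technical.

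Elastic fibres consist of a core of cross-linked elastin laid down on a scaffold of fibrillin microfibrils. Microfibril-associated glycoproteins, latent TGF-β binding proteins and emilins bind this scaffold, guide elastin assembly and hold growth factors in a latent form. In the lung, elastic fibres give alveolar walls their recoil, and myofibroblasts and other mesenchymal cells are known as their main source. Lysyl oxidases cross-link elastin and collagen, and BAPN blocks these enzymes. The comparison of BAPN with vehicle asks whether transcripts also change when the enzymes are blocked.

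A level below is the log2 processed signal of a probe minus the 75th percentile of its array, so that 0 is that percentile. Levels of different probes were not compared with each other, except that marker sums add them, so bright probes weigh most. All 15 member probes were well above background on all 15 arrays, and between 65.2% and 71.2% of non-control spots were so on an array. None of the spots was saturated. The 3 or 4 arrays in a group limit the precision. Each comparison came from 1 limma fit to all 15 arrays, with Benjamini-Hochberg adjustment over every feature tested, each gene at its brightest probe, and a threshold of 0.05. Cultures labelled ATII carried the epithelial markers Cdh1, Epcam, Krt8 and Krt18 on every array, and the surfactant genes Sftpc and Sftpb, which were not well above background on any fibroblast vehicle array. Of the ATII list, Slc34a2 was not well above background on any vehicle array, and Sftpa1 was so on 2 of 4 ATII vehicle arrays. Among vehicle arrays 6 of the 7 ATII markers tested were higher in ATII cells and 0 lower, with Abca3 at 0.10 (adjusted p 0.741 by limma). Abca3, Lamp3, Sftpd, Napsa, Krt8 and Krt18 were well above background on all 4 fibroblast vehicle arrays. Summed ATII markers (linear) ran from 34.5 to 37.6 on ATII vehicle arrays and from 21.0 to 23.3 on fibroblast vehicle arrays. Most of this sum came from Lamp3 (mean level 4.62 on ATII and 3.97 on fibroblast vehicle arrays) and Abca3 (2.69 and 2.59). It therefore says little of dimmer markers such as Sftpc (mean level 1.16 on ATII vehicle arrays).

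Probes of 5 genes on which the results turn are given 5′ to 3′ in lower case, as the array design has them, each by the first 30 of its 60 bases. The Eln probe lies at chr5:135179129-135179188 (mouse build mm9, minus strand), Mfap4 at chr11:61302147-61302206 (plus strand) and Ltbp2 at chr12:86124167-86124226 (minus strand). The Emilin1 probe covers chr5:31222545-31223001 (plus strand), 457 genomic bases for a probe of 60, so it crosses a splice junction. The 3 Ltbp4 probes, shown because they disagreed, lie on the minus strand at chr7:28090175-28090234, chr7:28091095-28091154 and chr7:28096601-28096660. Exon and untranslated region annotation of mm9 was not used here.
Eln: ataccggaagccttgacgatggatttggtg
Mfap4: atatgtggggctggaagtgggtgggtagca
Ltbp2: aaatgcacttccatacaagctagctggggg
Emilin1: gacagagtcttgctcaatgatggaggctac
Ltbp4 brightest probe: cctgggcctgtcctgggtcccctgacacat
Ltbp4 second probe: ttccagaaggcttcacctgcgattgtttcg
Ltbp4 last probe: gcttttacacacgtgcccctattcccaaaa

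Among vehicle arrays, ATII cells carried more Eln and less Mfap4, Mfap5, Ltbp2 and Emilin1 transcript than fibroblasts, with Fbn1 at nearly the same level in both. Of the 10 genes, 6 passed the test, 2 higher (Eln and Fbn2) and 4 lower. Over all 32483 features, 31.3% passed, 14.5% higher and 16.9% lower. The median log2 change was 0.13 over the 10 genes and -0.13 over all features. In 4 of the 10 genes the groups did not overlap, against 34.6% of all features. In bulk RNA, fewer cells of a type and less RNA per cell cannot be told apart.

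**Figure D1:**
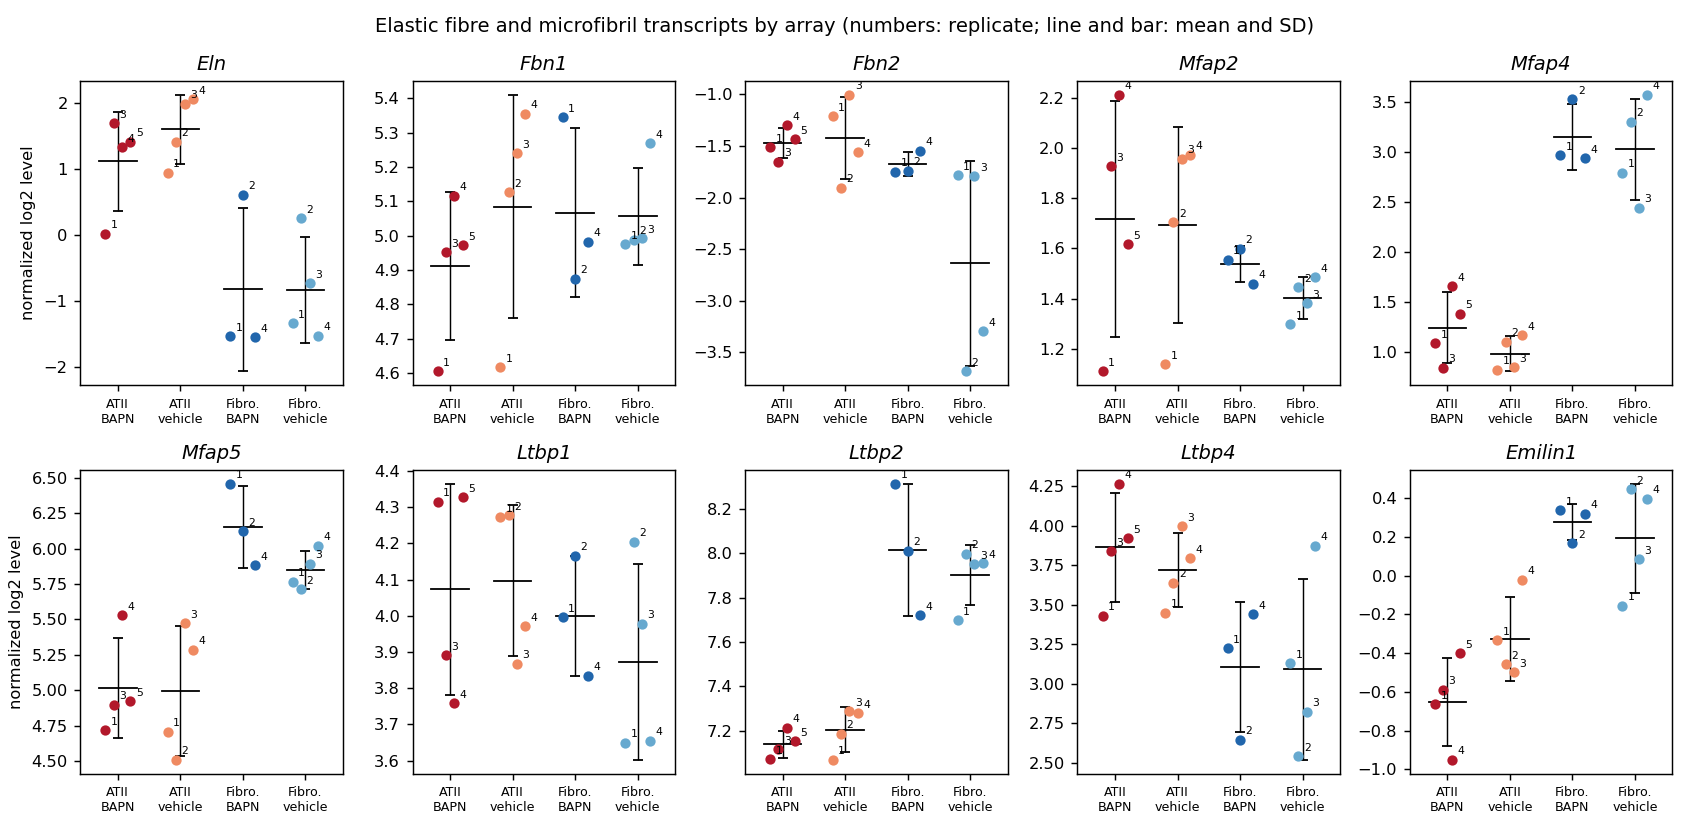
Normalized log2 level of each gene (vertical axis, one panel a gene, scales differ) on the 15 arrays by group, with replicate numbers beside the points, the group mean as a line and the SD as a bar. All 4 ATII vehicle arrays lie above all 4 fibroblast vehicle arrays for Eln and below them for Mfap4, Mfap5 and Ltbp2.

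Eln encodes tropoelastin, the soluble precursor of the elastic core. Its level was 0.94, 1.41, 1.99 and 2.05 in ATII vehicle replicates 1 to 4, against -1.34, 0.25, -0.73 and -1.53 in fibroblast vehicle replicates 1 to 4. Every ATII value was above every fibroblast value, and fibroblast replicate 2 was the nearest to the ATII arrays. The group means were 1.60 ± 0.52 in ATII cells and -0.84 ± 0.80 in fibroblasts (SD, n = 4 each), a log2 change of 2.43 ± 0.54 (SE), or 5.41-fold, with an adjusted p of 0.00323 by limma. This change was 2.50 among slide 1 arrays (adjusted p 0.032 by limma) and 2.37 among slide 2 arrays (adjusted p 0.121). Leaving out any 1 vehicle array kept the call.

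Fibroblast replicate 2 stood apart from the other fibroblast arrays in both treatments. It had the highest Eln of its group with BAPN (0.61) and with vehicle (0.25), and also the highest Ltbp1 and the lowest Ltbp4 in each. Its summed epithelial markers (linear, 1 being the 75th percentile) were 0.51 with BAPN and 0.33 with vehicle, against 4.03 to 17.8 on the other 5 fibroblast arrays. Its summed mesothelial markers (Msln, Upk3b and Wt1) were 0.48 in each treatment, against 5.52 to 19.6 on the others. Its summed leukocyte markers were 42.0 with BAPN and 41.5 with vehicle, against 21.1 to 28.2. The part of these cells in the Eln values was not tested. Without both of these arrays the log2 change of Eln between ATII and fibroblast vehicle arrays was 2.80 (adjusted p 0.000247 by limma), with 2.43 when both were kept. This setting was chosen after seeing the data. The arrays had the highest Eln of their groups, so leaving them out had to widen the change.

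**Figure D2:**
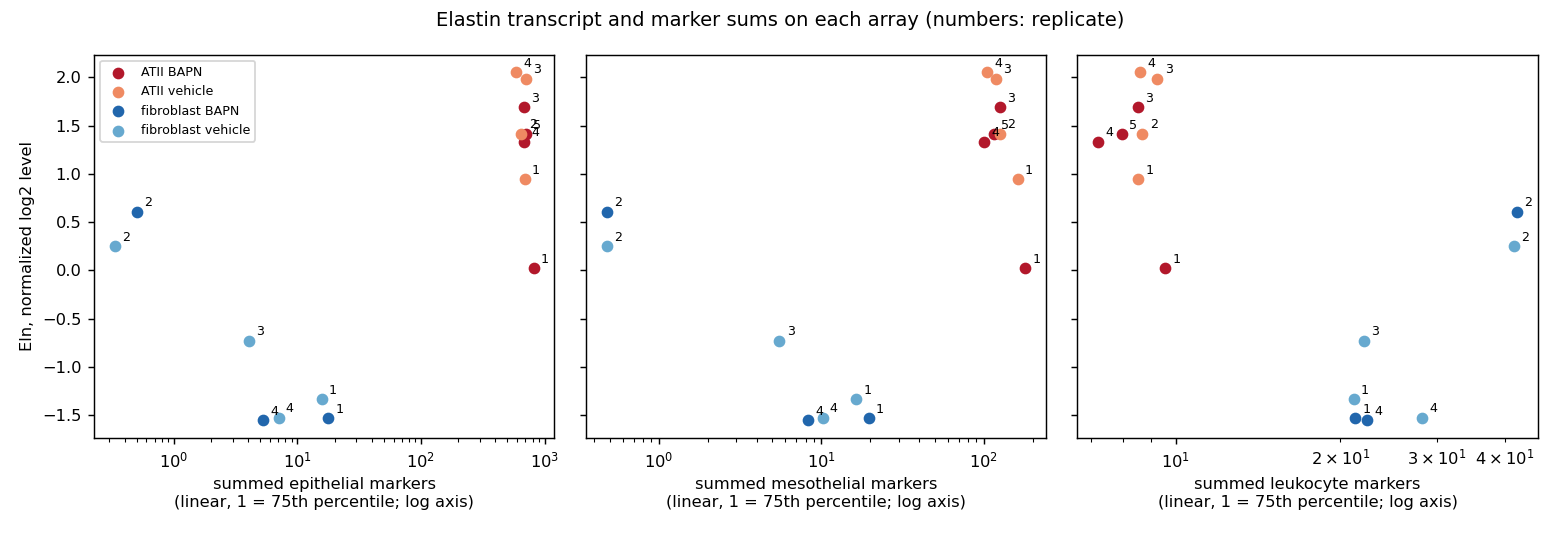
Eln level (vertical axis, normalized log2) against the summed linear level of epithelial, mesothelial and leukocyte markers (horizontal log axes), one point an array with its replicate number. ATII arrays lie at high epithelial and mesothelial sums, and the 2 arrays of fibroblast replicate 2 lie at the lowest epithelial and mesothelial and the highest leukocyte sums.

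Marker sums also differed between the cultures as a whole. Summed mesothelial markers ran from 105 to 162 on ATII vehicle arrays and from 0.48 to 16.3 on fibroblast vehicle arrays, though only 1 of the 3 was called higher and 0 lower. All 8 fibroblast markers were well above background on every ATII array, with a sum of 652 to 924 on ATII vehicle arrays and 783 to 1114 on fibroblast vehicle arrays. Col1a1, the main chain of fibrillar collagen I, had a log2 change of only 0.07 between them (adjusted p 0.807 by limma). Col1a2 changed by 0.03 (adjusted p 0.914 by limma), and most of the fibroblast marker sum came from Col1a1 and Col1a2. Of the 8 fibroblast markers 4 were lower in ATII cells and 0 higher, and Thy1, a fibroblast surface protein, fell by 2.90 on the log2 scale. Of the 5 smooth muscle and myofibroblast markers 3 were lower and 1 higher, with Myh11, a smooth muscle myosin, at -2.89, Des (desmin) at 1.30 and Tagln not called at -0.15. Leukocyte markers summed to 8.54 to 9.25 on ATII vehicle arrays and 21.1 to 41.5 on fibroblast vehicle arrays. Of these 6 markers 5 were lower in ATII cells and 1 higher, Cd14 at 1.08 (adjusted p 0.0126 by limma). Smooth muscle and myofibroblast markers summed to 967 to 1263 on ATII vehicle arrays and 1316 to 1852 on fibroblast vehicle arrays, and endothelial markers to at most 15.4 on ATII and 14.2 on fibroblast vehicle arrays. The part of other cell types in the elastic fibre transcripts was not tested.

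ATII replicate 1 stood low in both treatments. It had the lowest value of its group with BAPN and with vehicle in 5 of the 10 genes: Eln, Fbn1, Mfap2, Ltbp2 and Ltbp4. Its Eln level was 0.02 with BAPN and 0.94 with vehicle. The same replicate had the highest mesothelial sums among ATII arrays, 180 with BAPN and 162 with vehicle. Both arrays were singled out for their low values, so leaving them out had to raise the ATII mean of Mfap2. Without them the ATII to fibroblast log2 change of Mfap2 in vehicle was 0.48 (adjusted p 0.0264 by limma), with 0.29 when both were kept. With 1 vehicle array left out, Mfap2 passed in 0 of 8 fits.

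Fbn1 encodes fibrillin-1, the main microfibril protein of adult tissue. It ran from 4.62 to 5.35 on ATII vehicle arrays and from 4.98 to 5.27 on fibroblast vehicle arrays, and the groups overlapped. Its log2 change was 0.03, with a 95% interval from -0.34 to 0.40, inside 2-fold either way. The interval lay inside 2-fold for 5 of the 10 genes, against 57.8% of all features.

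Fbn2 encodes fibrillin-2, best known from developing tissue. Its brighter probe read -1.21, -1.90, -1.0 and -1.56 in ATII vehicle replicates 1 to 4, against -1.78, -3.68, -1.79 and -3.29 in fibroblast vehicle replicates 1 to 4. The low fibroblast values were those of replicates 2 and 4, both on slide 2, and the groups overlapped. This gave a log2 change of 1.22 ± 0.37 (SE, adjusted p 0.0229 by limma). It was 0.68 on slide 1 (adjusted p 0.014) and 1.75 on slide 2 (adjusted p 0.008). The call was lost without fibroblast vehicle replicate 2 (log2 change 0.87, adjusted p 0.0652) or 4 (1.00, 0.0707), and without ATII vehicle replicate 1 (1.15, 0.0570) or 3 (1.08, 0.0646). The second Fbn2 probe changed by 0.46 with an adjusted p of 0.140 in the fit over all probes, so the probes disagreed on the call.

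Mfap2, Mfap4 and Mfap5 encode small microfibril-associated glycoproteins, of which MFAP2 and MFAP5 bind fibrillin and MFAP4 binds elastin and collagen. Mfap4 read 0.82, 1.10, 0.84 and 1.16 in ATII vehicle replicates 1 to 4, against 2.79, 3.30, 2.44 and 3.57 in fibroblast vehicle replicates 1 to 4. No ATII value reached the lowest fibroblast value. On the log2 scale Mfap4 changed by -2.05 ± 0.25 (SE), 4.13-fold lower in ATII cells, with an adjusted p of 2.5e-05 by limma. It was -1.79 on slide 1 and -2.31 on slide 2, past the threshold on each.

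Mfap5 read 4.71, 4.51, 5.47 and 5.29 in ATII vehicle replicates 1 to 4, against 5.77, 5.72, 5.89 and 6.02 in fibroblast vehicle replicates 1 to 4. The ATII arrays spread more widely but stayed below all fibroblast arrays. The Mfap5 change was -0.86 ± 0.23 on the log2 scale (SE, adjusted p 0.0105 by limma), with adjusted p values of 0.0790 and 0.0791 within slides 1 and 2. Mfap2 ran from 1.14 to 1.98 on ATII vehicle arrays and from 1.30 to 1.49 on fibroblast vehicle arrays. Its change did not pass the test (0.29 ± 0.22, SE, adjusted p 0.375), and its second probe gave 0.06.

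The latent TGF-β binding proteins tie latent TGF-β to microfibrils. LTBP2, unlike LTBP1 and LTBP4, does not bind latent TGF-β. Ltbp2 read 7.07, 7.19, 7.29 and 7.28 in ATII vehicle replicates 1 to 4, against 7.70, 8.0, 7.95 and 7.96 in fibroblast vehicle replicates 1 to 4. The groups did not overlap and each was narrow. On the log2 scale Ltbp2 changed by -0.70 ± 0.12 (SE), 1.62-fold lower in ATII cells, with an adjusted p of 0.000699 by limma. Ltbp1 ran from 3.87 to 4.28 on ATII vehicle arrays and from 3.65 to 4.20 on fibroblast vehicle arrays, with no call (0.23 ± 0.17, SE, adjusted p 0.383).

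Ltbp4, which also assists elastin assembly, showed how the choice of probe bears on a call. Its brightest probe ran from 3.45 to 4.00 on ATII vehicle arrays and from 2.54 to 3.87 on fibroblast vehicle arrays, a log2 change of 0.63 ± 0.27 (SE, adjusted p 0.104 by limma). The second probe gave 0.57 (adjusted p 0.118 in the fit over all probes). The last probe, designed on another transcript, read -1.88, -1.72, -1.57 and -1.63 in ATII vehicle replicates 1 to 4, against -2.80, -3.13, -3.11 and -2.87 in fibroblast vehicle replicates 1 to 4. Its groups did not overlap, and its change of 1.27 ± 0.16 (SE) passed the test (adjusted p 3e-05 by limma over all probes). With the mean of the 3 probes the change was 0.82 and passed (adjusted p 0.00876), as it did for the brightest probe without fibroblast vehicle replicate 4 (0.89, adjusted p 0.0121).

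Emilin1 encodes a glycoprotein found where elastin meets microfibrils. It read -0.33, -0.46, -0.50 and -0.02 in ATII vehicle replicates 1 to 4, against -0.15, 0.45, 0.09 and 0.40 in fibroblast vehicle replicates 1 to 4. ATII replicate 4 lay above fibroblast replicate 1, so the groups overlapped. The log2 change was -0.52 ± 0.16 (SE, adjusted p 0.0244 by limma). The call was lost without fibroblast vehicle replicate 2 (-0.44, adjusted p 0.0764) or 4 (-0.45, 0.0656), and without ATII vehicle replicate 2 (-0.48, 0.0682) or 3 (-0.46, 0.0671). With the replicate number as a block it was -0.52 with an adjusted p of 0.0516.

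Among BAPN arrays the same comparison called 5 of the 10 genes, Eln higher and Mfap4, Mfap5, Ltbp2 and Emilin1 lower in ATII cells, against 29.3% of 32276 features. The 2 comparisons use different arrays. Eln read 0.02, 1.69, 1.33 and 1.41 in ATII BAPN replicates 1, 3, 4 and 5, against -1.53, 0.61 and -1.55 in fibroblast BAPN replicates 1, 2 and 4. ATII replicate 1 lay below fibroblast replicate 2, so the groups overlapped. The log2 change was 1.94 ± 0.58 (SE, adjusted p 0.0222 by limma). The call was lost without fibroblast BAPN replicate 1 (1.59, adjusted p 0.0876) or 4 (1.58, 0.102), and without ATII BAPN replicate 3 (1.75, 0.0585) or 5 (1.84, 0.0539).

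In 4 of the 10 genes the BAPN groups did not overlap, against 34% of all features. Mfap4 read 1.08, 0.84, 1.66 and 1.38 in ATII BAPN replicates 1, 3, 4 and 5, against 2.97, 3.53 and 2.94 in fibroblast BAPN replicates 1, 2 and 4. Its log2 change was -1.91 ± 0.27 (SE, adjusted p 0.000109 by limma). Every ATII value lay below every fibroblast value, as it also did for Mfap5, Ltbp2 and Emilin1.

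Mfap5 read 4.72, 4.90, 5.53 and 4.92 in ATII BAPN replicates 1, 3, 4 and 5, against 6.46, 6.12 and 5.88 in fibroblast BAPN replicates 1, 2 and 4, a change of -1.14 ± 0.25 (SE, adjusted p 0.00316 by limma). Ltbp2 read 7.07, 7.12, 7.21 and 7.15 in ATII BAPN replicates 1, 3, 4 and 5, against 8.31, 8.01 and 7.72 in fibroblast BAPN replicates 1, 2 and 4, a change of -0.88 ± 0.13 (SE, adjusted p 0.000233). The ATII arrays were close together for Ltbp2 and the fibroblast arrays spread more. Emilin1 read -0.66, -0.59, -0.95 and -0.40 in ATII BAPN replicates 1, 3, 4 and 5, against 0.34, 0.17 and 0.32 in fibroblast BAPN replicates 1, 2 and 4. The sets lay on opposite sides of 0, with a change of -0.93 ± 0.17 (SE, adjusted p 0.00119 by limma).

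Slide 1 held 3 ATII and 1 fibroblast BAPN arrays, and slide 2 held 1 ATII and 2 fibroblast BAPN arrays. Each slide thus left a lone array in 1 group, and only the sizes of the changes are given. All 5 called genes kept their direction on both slides. Eln changed by 2.57 on slide 1 and by 1.80 on slide 2. Mfap5 changed by -1.61 on slide 1 and by -0.47 on slide 2, and Ltbp2 by -1.20 and by -0.65. The lone slide 1 array, fibroblast replicate 1, had the highest Mfap5 (6.46) and Ltbp2 (8.31) of the fibroblast BAPN arrays. Mfap4 changed by -1.87 on slide 1 and -1.58 on slide 2, and Emilin1 by -0.89 and -1.20. A lone array was taken to vary like those of the other groups, and differences between the slides were not tested. Fbn2, called among vehicle arrays, changed by 0.20 with an adjusted p of 0.773 over all BAPN arrays. Ltbp4 changed by 0.76 (adjusted p 0.0711), and passed without ATII BAPN replicate 1 (0.90, adjusted p 0.0481).

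**Figure D3:**
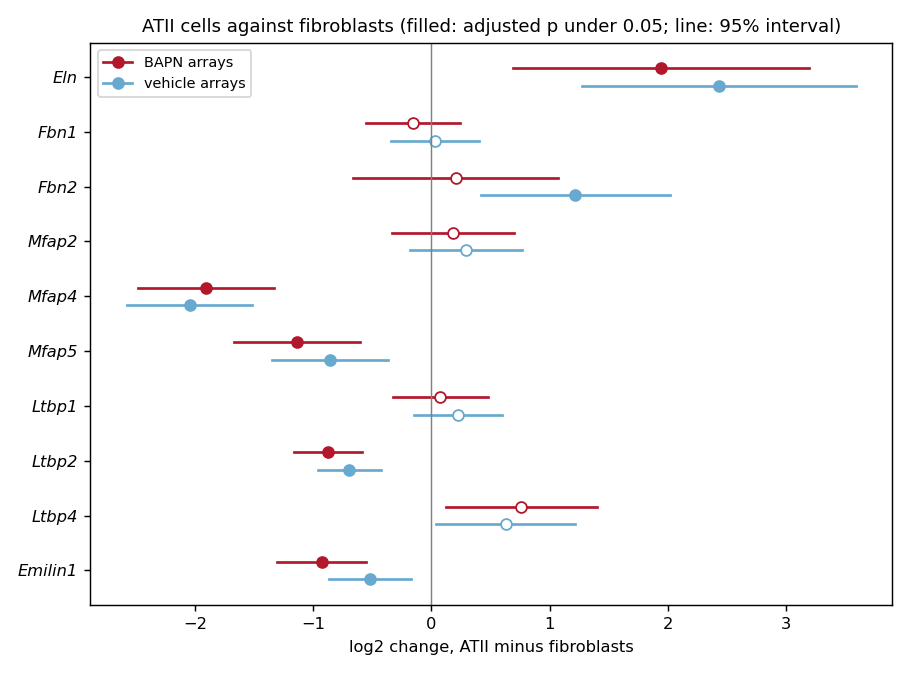
Log2 change of each gene, ATII cells minus fibroblasts (horizontal axis), on BAPN and on vehicle arrays, with 95% intervals from limma and filled points where the adjusted p was under 0.05. Eln lies to the right and Mfap4, Mfap5, Ltbp2 and Emilin1 to the left of 0 in both treatments, while Fbn2 is called among vehicle arrays alone.

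Promoter windows of 250 bases before the start, from RefSeq on build GRCm38.p6, were found for 6 of the genes and are shown for Ltbp2 and Emilin1, which were both lower in ATII cells in each treatment. They lie at chr12:84876492-84876741 (minus strand) and chr5:30913536-30913785 (plus strand). Capitals mark GGGCGG, the GC box, in Ltbp2 (2 matches) and CAGACA in Emilin1 (1 match), searched on both strands together with TATAAA and CCAAT, which matched neither. Of all 32851 windows, 32.7% held GGGCGG, 17.1% CAGACA, 12.4% TATAAA and 33.8% CCAAT. A match describes the letters and marks no binding.
Ltbp2: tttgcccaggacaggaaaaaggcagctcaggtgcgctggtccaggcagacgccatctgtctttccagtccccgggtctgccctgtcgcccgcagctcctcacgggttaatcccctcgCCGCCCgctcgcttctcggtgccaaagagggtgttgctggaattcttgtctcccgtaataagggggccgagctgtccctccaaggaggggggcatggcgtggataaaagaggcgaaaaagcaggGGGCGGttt
Emilin1: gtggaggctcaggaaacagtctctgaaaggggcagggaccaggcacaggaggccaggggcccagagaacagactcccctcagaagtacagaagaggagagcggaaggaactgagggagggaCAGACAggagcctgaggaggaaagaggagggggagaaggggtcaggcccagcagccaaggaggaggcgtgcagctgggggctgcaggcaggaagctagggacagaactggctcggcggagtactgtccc

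Genes that work with elastic fibres were taken from 8 lists, and 67 of them could be tested between ATII and fibroblast vehicle arrays. Of these, 16 were higher and 26 lower in ATII cells, with a median log2 change of -0.34, against 14.5% higher, 16.9% lower and a median of -0.13 over all features. Fibulins bridge elastin and microfibrils, and 1 of 7 was higher and 5 lower. Hmcn1 (hemicentin-1) rose by 2.40 on the log2 scale in ATII cells, while Efemp1 (fibulin-3) fell by 3.39, Fbln5 by 1.48 and Fbln7 by 1.28. Fibulin-5 is required for elastic fibre assembly in mice.

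Of the 5 lysyl oxidases, the enzymes that BAPN blocks, 1 was higher and 3 lower. Loxl2 rose by 1.64 in ATII cells, Loxl3 fell by 1.84 and Loxl4 by 0.93 on the log2 scale. Lox, the best known of the family, changed by -0.34 with an adjusted p of 0.114 by limma. Emilin2 was the 1 of 3 emilin and multimerin relatives that passed, and fell by 1.80.

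Among 16 other microfibril-associated proteins and ADAMTS-like regulators, 3 were higher and 6 lower. Adamtsl1 rose by 1.96, Thsd4 (ADAMTSL6) by 1.09 and Furin, a protease that trims profibrillin, by 0.79. Adamtsl5 fell by 2.56 and Adamtsl3 (well above background on 2 of 4 ATII vehicle arrays) by 2.48, and Adamtsl4, which binds fibrillin-1, fell by 2.35. Of 7 latent growth factors, 3 were higher and 2 lower. Tgfb2 rose by 1.66 and Tgfb1 by 1.48, while Bmp4 fell by 2.62 and Tgfb3 by 0.77. Bmp7 was not well above background on any fibroblast vehicle array and lay at least 25.6-fold higher in ATII cells (adjusted p 2.7e-07 by limma), a bound set by the dimmest probe well above background on each array.

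Of 11 cell receptor genes, 3 were higher and 3 lower. Itgb6, the epithelial integrin subunit that activates latent TGF-β, rose by 7.66 in ATII cells (well above background on 2 of 4 fibroblast vehicle arrays), Itgb3 by 4.04 and Itga5 by 0.62. Itga8, the partner of integrin β1 on mesenchymal cells, fell by 3.37 and Ctsa, part of the elastin receptor complex, by 1.12. Of 13 elastases and inhibitors, 4 were higher and 3 lower. Mmp9, an elastase, was not well above background on any fibroblast vehicle array and lay at least 241-fold higher in ATII cells (adjusted p 1.7e-11 by limma). Slpi, an elastase inhibitor, rose by 2.54 and Mmp2 by 1.58. Ctss, a cathepsin of macrophages, fell by 3.88, Ctsk by 1.68 and Timp2 by 1.56. Leukocyte sums were also lower, as given above, but the part of leukocytes in these changes was not tested. Of 5 proteoglycans 1 was higher and 3 lower, with Vcan up by 1.35, Dcn (also on the fibroblast marker list) down at -1.88 and Acan at -1.39.

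**Figure D4:**
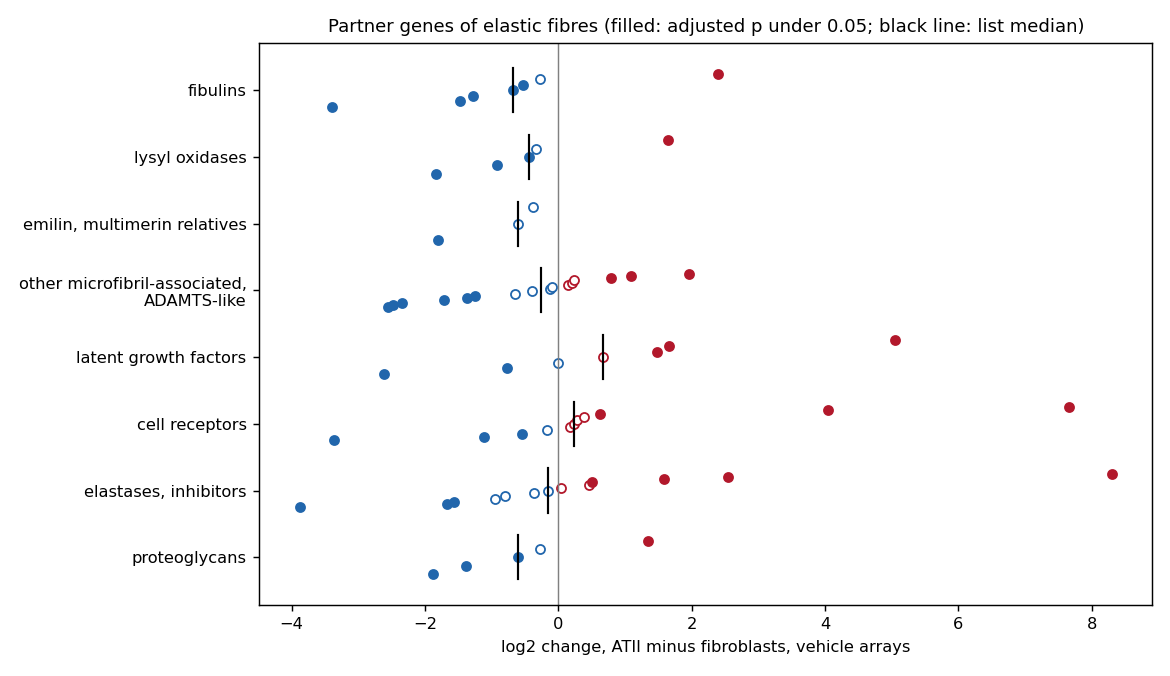
Log2 change of 67 partner genes, ATII minus fibroblast vehicle arrays (horizontal axis), by list, with filled points where the adjusted p was under 0.05 and a black line at the list median. Fibulins, lysyl oxidases and proteoglycans have medians below 0, and points on the right include Mmp9, not well above background on any fibroblast vehicle array, and Itgb6, well above it on 2 of 4.

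BAPN called none of the 10 genes in either cell type. In fibroblasts 0 of 10 passed, against 13.4% of 32269 features (2.36% higher, 11.1% lower), and at an unadjusted p under 0.05 there was 1 of the 10. In ATII cells 0 of 10 passed, against 0% of 32055 features, and at an unadjusted p under 0.05 there were 0 of the 10 and 3336 of all features. For the difference between the 2 effects 0 of 10 passed, against 0% of 34301 features, with 0 of the 10 and 4724 of all at an unadjusted p under 0.05.

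Intervals show how large a change could have gone unseen. In fibroblasts the 95% interval lay inside 2-fold either way for 8 of the 10 genes, against 60.7% of all features, the exceptions being Eln and Fbn2. In ATII cells it did so for 9 of 10, against 69.9%, the exception being Eln. Eln changed by 0.01 in fibroblasts (95% interval -1.24 to 1.26) and by -0.49 in ATII cells (-1.64 to 0.67), the widest intervals of the 10. For the difference, the interval lay inside 2-fold for 6 of 10 genes, against 45.6% of all features.

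Fbn2 in fibroblasts had the largest BAPN effect of the 10 genes. Its brighter probe read -1.75, -1.74 and -1.55 in fibroblast BAPN replicates 1, 2 and 4, against -1.78, -3.68, -1.79 and -3.29 in fibroblast vehicle replicates 1 to 4. The groups did not overlap, as in 24% of all features, but BAPN replicate 1 and vehicle replicates 1 and 3, all on slide 1, were nearly level. The log2 change was 0.96 ± 0.40 (SE, p 0.0327 unadjusted, adjusted p 0.140 by limma). It was 0.04 on slide 1, which held 1 fibroblast BAPN array, and 1.85 on slide 2 (adjusted p 0.00508 by limma). The second Fbn2 probe changed by -0.35 (adjusted p 0.385 in the fit over all probes), the opposite sign.

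On slide 2, signal also varied with the spot column, and did so differently on BAPN and vehicle arrays. Of the features called lower with BAPN in fibroblasts, 96% lay in columns above 82 of 164, as did 86.9% of those called higher and 50.2% of those tested. The brighter Fbn2 probe sits in column 11. The 372 spots of like level in the columns around it deviated by 0.08 and 0.17 on BAPN replicates 2 and 4, against -0.25 and -0.14 on vehicle replicates 2 and 4. Their mean shift between BAPN and vehicle fibroblasts was 0.19, against 0.96 for Fbn2 itself. For the other 9 genes this neighbour shift ran from -0.15 to 0.12. The second Ltbp1 probe, in column 6, read -3.65 and -4.04 on fibroblast vehicle replicates 2 and 4, and -2.55 and -2.39 on the BAPN arrays of those numbers. With signal corrected by spot column, over all levels or within level deciles, Fbn2 did not pass the threshold either. Its change stayed above 0 in all 21 alternatives, these corrections included. The part of position in the Fbn2 values was not tested further.

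All 10 genes had a log2 change above 0 in BAPN fibroblasts, against 52.4% of all features, with a median of 0.12 against 0.02, and 9 of these 10 values were 0.31 or less. These directions turned with the arrays used: on slide 2 alone Fbn1, Mfap4, Ltbp2, Ltbp4 and Emilin1 were below 0 (-0.20, -0.20, -0.11, -0.16 and -0.18), and on slide 1 alone Eln was (-0.50). After Fbn2 came Mfap5 (0.31, 95% interval -0.22 to 0.84). In ATII cells 4 of 10 were above 0, against 49.9% of all features, with a median of -0.04 against -0.00041, and Emilin1 had the smallest p (-0.32 ± 0.16, SE, p 0.0655 unadjusted, adjusted p 0.463 by limma). Emilin1 read -0.66, -0.59, -0.95 and -0.40 in ATII BAPN replicates 1, 3, 4 and 5, against -0.33, -0.46, -0.50 and -0.02 in ATII vehicle replicates 1 to 4. The groups overlapped, with BAPN replicate 5 above vehicle replicates 2 and 3, and 0 of the 10 genes were without overlap in ATII cells, against 9.09% of all features.

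**Figure D5:**
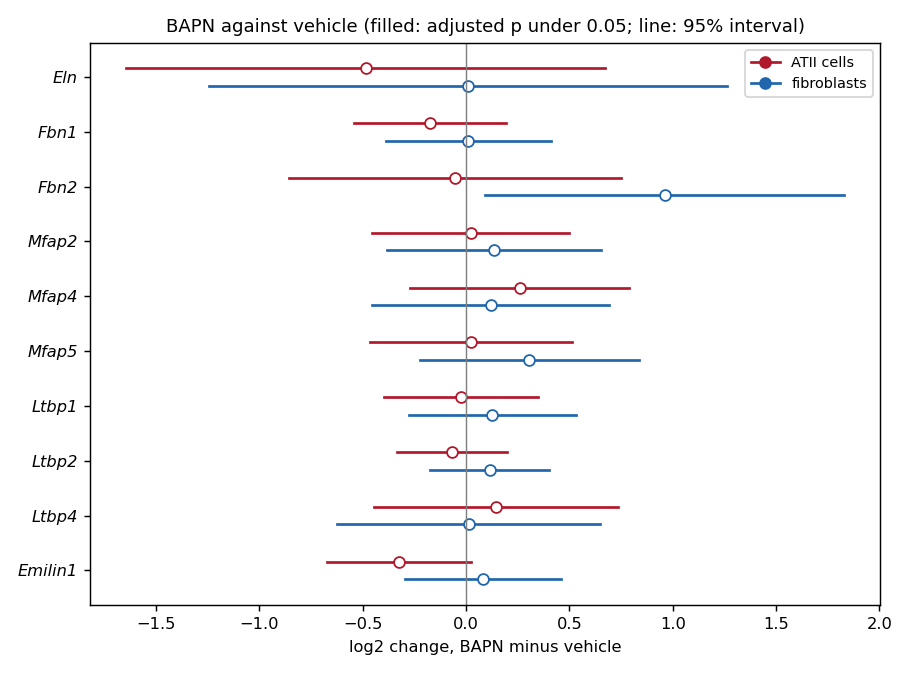
Log2 change of each gene, BAPN minus vehicle (horizontal axis), in ATII cells and in fibroblasts, with 95% intervals from limma. No point is filled, since no adjusted p was under 0.05, and the interval of Fbn2 in fibroblasts is the one that does not include 0.

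Of the partner genes, 1 of 65 passed with BAPN in fibroblasts and 0 of 66 in ATII cells. That gene was Neu1, the sialidase of the elastin receptor complex, with 3.53 in BAPN and 3.09 in vehicle fibroblasts, a log2 change of 0.43 ± 0.12 (SE, adjusted p 0.0349 by limma). In ATII cells Neu1 averaged 3.92 with BAPN and 3.36 with vehicle, a log2 change of 0.55 ± 0.11 (SE, adjusted p 0.463). Its spot lay in column 124, in the part of the array that held most calls of this comparison. With the replicate number as a block 0 features were called in fibroblasts by limma, and without both fibroblast arrays numbered 2, a setting chosen after seeing the data, 2 features were, both lower with BAPN. The Neu1 call was thus lost in both. The 5 lysyl oxidases changed by -0.28 to 0.23 in fibroblasts and by -0.22 to 0.09 in ATII cells, with none past the threshold.

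The genes whose pattern over the 15 arrays was most like that of Eln were Abcb1a, B3gnt8 and Gjb2. The mean absolute difference between centred log2 levels was 0.322, 0.350 and 0.381, against a median of 1.19 over 14830 candidate genes. For Fbn1, whose level varied by 0.75 over all arrays, the closest were Lamc1 (0.073), Ermard (0.085) and Tmed3 (0.085), against a median of 0.295. The points share arrays and the 2 cell types, so these are descriptions.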

How the data were processed

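One-colour Agilent arrays were read for 15 samples. The authors' scanner output gives background-subtracted, spatially detrended spot intensity, and places probes on mouse build mm9, per the file headers; Agilent Feature Extraction 10.7.3.1 is named in the submitters' processing notes. The deposited series table of log2 values, from its values quantile normalized, correlated with each array's own log2 signal at 0.999 or more and served as an alternative. Scanner marks (other columns, 0 or 1, per the file headers) gave background and outlier status.

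Here log2 processed signal minus each array's 75th percentile was used, outlier spots were left out, spots of a probe were averaged and a gene was taken at its brightest probe. Features well above background on 3 or more arrays compared were tested with limma 3.58.1 (R 4.3.3), 4 group means, 11 residual degrees of freedom, two-sided, threshold 0.05. Of 55681 probes, 27428 were named by accession, 3483 by symbol, 507 by an older symbol, and 24263 stayed unnamed. Fits were tested on simulated data. Figures used Python with matplotlib.

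All 10 members are named; partner genes are the 3 largest called changes in each direction per list without overlap, and 3 genes nearest in pattern to Eln and Fbn1. Neu1 falls outside this rule and was named after its value was seen, as were markers. Members and lists were chosen with earlier results of these data known. None of the 15 arrays was labelled fibroblast BAPN number 3 or ATII BAPN number 2.

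Deviations of ATII and fibroblast vehicle arrays with the same number correlated in 4 of 4 pairs (0.22 to 0.39), but each pair also shared a slide. Arrays of 1 slide with different numbers correlated too (0.24 to 0.33), while arrays of different slides ran from -0.41 to -0.17. These values therefore cannot tell if the numbers pair the arrays. The main fit did not pair BAPN and vehicle arrays by number. Such arrays of the same number, which shared a slide, correlated at -0.05 to 0.28 in fibroblasts and -0.04 to 0.41 in ATII cells. Those of different numbers on 1 slide lay lower, at -0.40 to -0.33 in fibroblasts and -0.26 to -0.14 in ATII cells. Those of different slides ran from -0.08 to 0.30 in fibroblasts and from -0.23 to 0.33 in ATII cells. Whether the numbers pair the treatments was not tested. Alternatives covered background, scaling, filter, probe choice, slide, spot column, block and each replicate left out. Some probe sequences are not reported here.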

Additional observations from a re-analysis of the deposited data

Results flagged for a closer look

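With 4 arrays a group, 30 gene and group sets were examined for a sample far from the others, and about 1 in 20 would be marked by chance. Fbn1 in vehicle fibroblasts had replicate 4 at 5.27, above the other 3 arrays, of which the nearest was at 4.99. Ltbp2 in vehicle fibroblasts had replicate 1 at 7.70, below the other 3 arrays, of which the nearest was at 7.95.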

How the results depend on the processing

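Over 1150 values of the 10 genes under the alternatives, 1015 kept their direction and their side of the threshold, 29 lost and 9 gained the call, and 97 changed sign, all 97 past the threshold neither before nor after and 0.71 or less in size. Between ATII and fibroblast vehicle arrays Mfap4 and Ltbp2 passed in 23 of 23 alternatives, Eln in 22, Mfap5 in 21, Fbn2 in 16 and Emilin1 in 12. The number of genes past the threshold was 3 with slide 2 alone (6 in the report) in that comparison, 2 (5 in the report) among BAPN arrays, and 1 (Fbn2; 0 in the report) for BAPN in fibroblasts. With 1 array left out it ran from 4 to 6 in both cell type comparisons and was 0 for BAPN. With the replicate block it was 5 in both cell type comparisons and 0 for BAPN, and only the call of Emilin1 among vehicle arrays changed. Fitting the compared groups alone called 1 gene higher and 3 lower among vehicle arrays. Among BAPN arrays that fit called 0 higher and 4 lower, so the Eln call was lost. With 1 BAPN array left out, the calls of Mfap4, Mfap5, Ltbp2 and Emilin1 between cell types held in 7 of 7 fits. That of Eln held in 3. Quantile scaling moved the median of all features between cell types in vehicle to -0.02, from the -0.13 given above, and changed none of the 6 calls. For BAPN in fibroblasts the calls over all features went from 4333 to 0 with the replicate block and to 4943 with spot column correction. In settings chosen after seeing the data, they went to 2 without both arrays numbered 2. They went to 2759 with spot column correction within level deciles, also chosen after seeing the data. Slide 1 alone gave 571 and slide 2 alone 5255, fitting the compared groups alone 2357, and 1 array left out 1190 to 4293 (lowest without BAPN replicate 2, then 1825 without vehicle replicate 2, 1998 without vehicle replicate 4 and 2004 without BAPN replicate 4). For BAPN in ATII cells slide 2 alone called 3181 and leaving out ATII BAPN replicate 1 called 1, against 0. For the difference between BAPN effects slide 1 alone called 122, and leaving out ATII BAPN replicate 4 called 275 or fibroblast BAPN replicate 1 called 15, with 1 or 2 under 5 other alternatives, against 0. Between cell types, slides 1 and 2 alone called 6495 and 4753 in vehicle against 10176, and slide 2 alone 1845 with BAPN against 9446. The cause was not tested, and the slides hold fewer arrays. Slide 1 holds 1 fibroblast BAPN array and slide 2 holds 1 ATII BAPN array. Counts from a slide that use its lone array have no replication in that group. All 15 member probes were well above background on every array. Signs that changed were as follows. With normexp background correction these were Fbn1 -0.036 (ATII against fibroblasts, vehicle), Ltbp1 -0.023 (ATII against fibroblasts, BAPN), Mfap4 -0.059 and Ltbp4 -0.17 (BAPN in fibroblasts) and Fbn2 0.057, Mfap2 -0.016, Mfap5 -0.023 and Ltbp1 0.012 (BAPN in ATII cells). With quantile scaling these were Fbn1 -0.010 (ATII against fibroblasts, vehicle), Fbn1 -0.084 and Ltbp4 -0.083 (BAPN in fibroblasts) and Mfap5 -0.0022 (BAPN in ATII cells). With the deposited table these were Fbn1 -0.011 (ATII against fibroblasts, vehicle), Fbn1 -0.085 and Ltbp4 -0.083 (BAPN in fibroblasts) and Mfap5 -0.0064 (BAPN in ATII cells). With slide 1 alone these were Fbn1 -0.055 (ATII against fibroblasts, vehicle), Mfap2 -0.0029 (ATII against fibroblasts, BAPN), Eln -0.50 (BAPN in fibroblasts), Mfap5 -0.24 and Ltbp1 0.11 (BAPN in ATII cells) and Eln 0.075, Mfap4 -0.082 and Ltbp4 -0.24 (the difference between BAPN effects). With slide as a block these were Fbn2 -0.049 (ATII against fibroblasts, BAPN) and Eln -0.068, Fbn1 -0.0075 and Ltbp4 -0.013 (BAPN in fibroblasts). With slide 2 alone these were Fbn1 0.19 and Ltbp1 -0.24 (ATII against fibroblasts, BAPN), Fbn1 -0.20, Mfap4 -0.20, Ltbp2 -0.11, Ltbp4 -0.16 and Emilin1 -0.18 (BAPN in fibroblasts), Fbn2 0.43 (BAPN in ATII cells) and Fbn1 0.075, Mfap2 0.31, Mfap5 0.50 and Ltbp2 0.092 (the difference between BAPN effects). With the replicate block these were Fbn2 -0.15 (ATII against fibroblasts, BAPN), Fbn1 -0.010, Mfap4 -0.076 and Ltbp4 -0.077 (BAPN in fibroblasts) and Mfap5 -0.11 (BAPN in ATII cells). With both ATII arrays numbered 1 left out these were Ltbp1 -0.0061 (ATII against fibroblasts, BAPN) and Fbn2 0.029 (BAPN in ATII cells). With the mean of all probes these were Ltbp4 -0.051 (BAPN in fibroblasts) and Mfap2 -0.056 and Ltbp1 0.31 (BAPN in ATII cells). With correction by spot column these were Fbn1 -0.18 and Emilin1 -0.034 (BAPN in fibroblasts). With that correction within level deciles these were Eln -0.0071 and Ltbp4 -0.10 (BAPN in fibroblasts) and Mfap2 -0.041, Mfap5 -0.059 and Ltbp1 0.056 (BAPN in ATII cells). With both fibroblast arrays numbered 2 left out these were Eln -0.34 (BAPN in fibroblasts). With 1 array left out in turn the ranges of those that changed sign were Fbn1 -0.061 to 0.18 (ATII against fibroblasts, vehicle), Ltbp1 -0.010 to 0.18 (ATII against fibroblasts, BAPN), Eln -0.71 to 0.37, Fbn1 -0.13 to 0.11, Mfap4 -0.076 to 0.30, Ltbp2 -0.035 to 0.26, Ltbp4 -0.17 to 0.27 and Emilin1 -0.034 to 0.17 (BAPN in fibroblasts), Fbn2 -0.21 to 0.087, Mfap2 -0.16 to 0.23, Mfap5 -0.15 to 0.18 and Ltbp1 -0.11 to 0.081 (BAPN in ATII cells) and Eln -0.86 to 0.22, Mfap2 -0.30 to 0.090, Mfap4 -0.041 to 0.34 and Ltbp4 -0.13 to 0.32 (the difference between BAPN effects).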
